A study of Homo sapiens with 24 samples.

Results

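The MYB family of transcription factors has 3 human genes, MYB, MYBL1 (A-MYB) and MYBL2 (B-MYB), and these were 3 of the 58721 genes counted in 24 RNA-seq libraries of A549, an established human lung adenocarcinoma cell line. They were taken by symbol, whatever their level. RNA was captured by its poly(A) tail and sequenced as paired-end reads. All groups were A549 cells, and the labels name no further genetic change in any of them.

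Cells in 4 siMYBL2 libraries were transfected with 25 nM of siRNA against MYBL2, and cells in 4 siFOXM1 libraries with siRNA against FOXM1. Both were compared with the same 4 siControl libraries, which received scrambled siRNA. Cells in 3 siBoth libraries received both targeting siRNAs and were compared with 3 scrambled-siRNA libraries of their own (siControl_Both). Cells in 3 FDI6 libraries were treated with 20 µM FDI-6, a small molecule that inhibits FOXM1, for 24 h, and were compared with 3 control_FDI6 libraries, for which the labels name neither an siRNA nor a vehicle, while the study describes the comparison as one with DMSO. The labels state 3 extractions per condition, although the single-knockdown groups have 4 libraries, and do not say which libraries came from separate cultures. The study's methods call the replicates biological, and p-values measure the spread between these libraries. The siRNA sequences were not used here, and transient transfection leaves an unknown share of cells untransfected. In bulk RNA, fewer cells expressing a gene and less of its RNA per cell cannot be told apart.

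MYB proteins bind DNA through Myb-type repeats in their amino-terminal part. MYB is best known in blood progenitors and in some epithelial progenitors, and MYBL1 in male germ cells. MYBL2 is made in nearly all dividing cells: E2F factors switch its gene on as cells enter S phase, and its protein joins the MuvB core to form the MMB complex, which activates late cell-cycle genes together with FOXM1.

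RefSeq promoter windows (GRCh38.p14, from 250 bases before to 50 after the annotated start) were at hand for MYB and MYBL2. Because E2F factors are the textbook activators of MYBL2, the E2F-type letters GGCGGGA were searched on both strands of these windows. They occurred 1 time in each, starting 58 bases upstream of the MYB start and 39 bases upstream of the MYBL2 start, and in 15.4% of all 35116 promoter windows. The 30 bases around each match are shown on the plus strand, with the match in capitals, at chr6:135181239-135181268 for MYB and at chr20:43667064-43667093 for MYBL2.
MYB: gcgccagatttGGCGGGAgggggagtgtcc
MYBL2: ccgacgcgcttGGCGGGAgatagaaaagtg
The MYBL2 stretch lies inside the outermost GENCODE gene boundary, since that boundary is upstream of the RefSeq start. Neither window held TTTGAA, one form of the CHR element of MMB and FOXM1 target genes, or CCAAT. Most windows lack these letters, which occurred in 15.2% and 34.6% of all windows. The short Myb-type letters AACNG occurred in both windows and in 77.2% of all windows. These matches describe letters in the windows and not binding.

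On hg38 (GENCODE V44) MYB lies on chromosome 6 from 135181308 to 135219173 on the plus strand, with 16 exons in its canonical transcript. MYBL1 lies on chromosome 8 from 66562175 to 66614247 on the minus strand, also with 16 exons. MYBL2 lies on chromosome 20 from 43667019 to 43716495 on the plus strand, with 14 exons. The canonical transcripts differ in base composition, with a GC content of 43.9% for MYB, 37.2% for MYBL1 and 60% for MYBL2. No exon of MYBL1 or MYBL2 overlaps another annotated gene. MYB shares 1.87% of its exonic bases with the antisense gene MYB-AS1, which had 0 pairs in 24 of 24 libraries. The counts sum whole genes, so isoforms, introns and UTRs were not resolved.

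Libraries held 16487394 to 30140550 read pairs on genes. The cells carried the epithelial keratins KRT7, KRT8 and KRT18 at medians of 1520, 3620 and 1510 CPM (counts scaled to each library’s total, with TMM factors). The epithelial markers EPCAM and CDH1 were much lower, at medians of 8.73 and 30.2 CPM. The alveolar lineage genes NKX2-1, SFTPB and SFTPC had at most 8 pairs in any library, and PTPRC, CD34, SPI1 and HBB, which mark blood cells, did not exceed 0.531 CPM. Among fibroblast markers, COL1A1 had a median of 27 CPM, COL3A1 of 1.48 and PDGFRB of 0.178. The endothelial markers PECAM1 and CDH5 had medians of 1.4 and 0.477 CPM. A larger share of read pairs was not aligned in the siBoth (9.09% to 10.9%) and siControl_Both libraries (7.68% to 7.92%) than in the other groups (1.73% to 3.03%).

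MYBL2 was by far the most abundant family member in the control libraries of A549 cells. Per kilobase of exon (RPKM), its mean level over the 10 control libraries was 62.04, above 96.9% of 17324 protein-coding genes with counts. MYBL1 stood at 3.392 RPKM, above 54.6% of those genes, and MYB at 0.178 RPKM, above 26.9%. In siControl, MYBL2 made up 93.8% ± 1.31 (SD, n = 4) of the summed RPKM of the 3 genes, MYBL1 5.89% ± 1.37 and MYB 0.325% ± 0.048. This order held in each of the 10 control libraries. MYB rested on only 13 to 50 read pairs per library, so counting error alone gave a coefficient of variation of 16.7% to 22.7% at its group means. MYBL1 rested on 339 to 1012 pairs and MYBL2 on 129 to 5113.

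**Figure D1:**
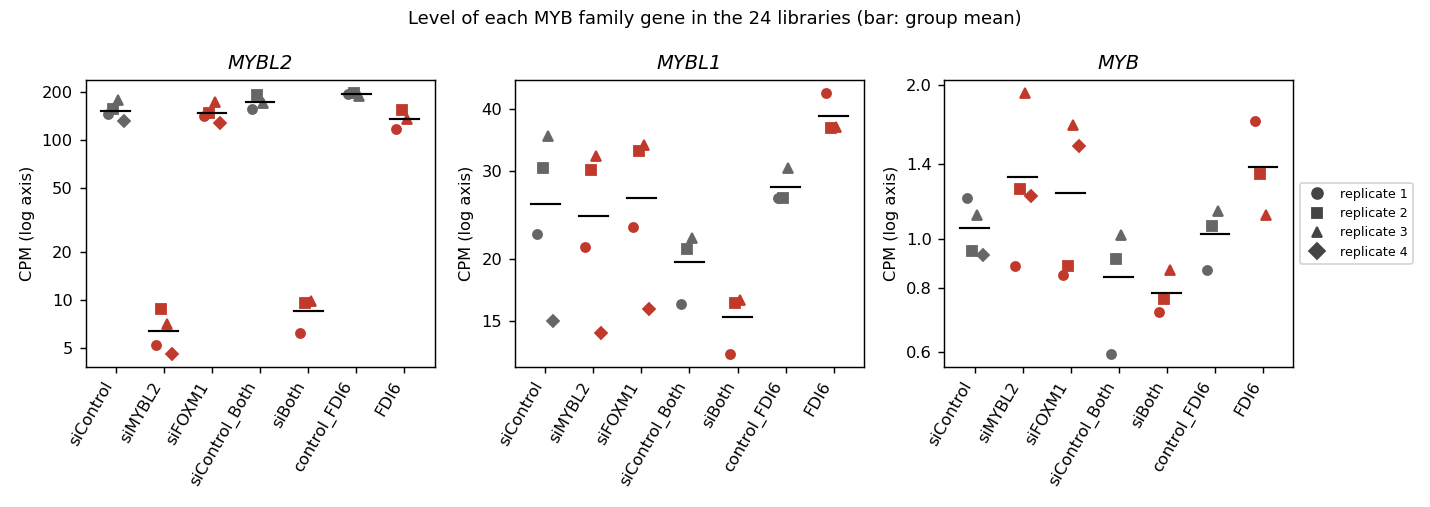
CPM on a log axis of MYBL2, MYBL1 and MYB in each of the 24 libraries, by group (grey, controls; red, treated; symbol, replicate number; bar, group mean). MYBL2 lies between 4.606 and 9.904 CPM in the siMYBL2 and siBoth libraries and at 118 CPM or more in all others, whereas MYBL1 spreads widely within the single-knockdown groups.

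The first comparison asked how far the MYBL2 siRNA lowered its own target. MYBL2 measured 5.182, 8.742, 7.03 and 4.606 CPM in siMYBL2 replicates 1 to 4. In the same-numbered siControl libraries it measured 147.1, 156.9, 178.2 and 133.2 CPM. Every siMYBL2 library lay far below every siControl library, and each kept between 3.46% and 5.57% of the level of its same-numbered control. MYBL2 fell by 4.58 on the log2 scale (SE 0.205, edgeR quasi-likelihood test, adjusted p = 1.49e-05), and an exact two-sided permutation test of these libraries alone gave p = 0.0286, the smallest that 4 against 4 allows (0.3 after adjustment over 12 such tests). MYBL2 was the only 1 of the 3 genes past adjusted p of 0.05 and a 1.5-fold change, limits that 7.9% of the 16065 genes tested passed in this comparison.

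The double knockdown lowered MYBL2 by a like amount. It measured 6.225, 9.519 and 9.904 CPM in siBoth replicates 1 to 3, against 157.9, 192.2 and 172.1 CPM in siControl_Both. The groups did not overlap, and 3.94%, 4.95% and 5.75% of the same-numbered control level remained. MYBL2 fell by 4.35 on the log2 scale (SE 0.181, edgeR adjusted p = 2.64e-05), and 6.44% of 15812 genes were called in this comparison. An exact permutation test gave p = 0.1, the smallest possible with 3 against 3. The response to both siRNAs minus the response to the MYBL2 siRNA alone was 0.24 on the log2 scale (95% interval -0.27 to 0.74, edgeR adjusted p = 0.872), in a test that 0.304% of 17752 genes passed. In fold, the 95% interval for MYBL2 in siBoth relative to control over that in siMYBL2 ran from 0.827 to 1.67. These data allow differences of any size within it. The FOXM1 siRNA lowered its own target to 12.15 CPM from 126.2 CPM in siControl, and FOXM1 stood at 13.25 CPM in siBoth against 137.1 CPM.

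With the FOXM1 siRNA alone, MYBL2 stayed close to its control. Its level was 142.5, 148.8, 173.9 and 128.9 CPM in siFOXM1 replicates 1 to 4. Each library was slightly below its same-numbered siControl library, at 96.9%, 94.9%, 97.6% and 96.8% of it, and the groups overlapped almost fully. The log2 fold change was -0.057 (SE 0.113, edgeR adjusted p = 0.913), with a 95% interval of 0.806 to 1.15 in fold. A fit blocked on replicate number narrowed the interval to 0.919 to 1.01 in fold (edgeR adjusted p = 0.191). None of the 3 members was called in this comparison, where 0.667% of 15892 genes were. FOXM1 fell in siMYBL2, from 126.2 CPM ± 13 to 75.94 CPM ± 14 (SD, n = 4 each), a log2 fold change of -0.73 (SE 0.138, edgeR adjusted p = 0.00754).

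After FDI-6, MYBL2 fell moderately. Its level was 118, 155.3 and 136.7 CPM in FDI6 replicates 1 to 3 and 196.6, 199.1 and 188.8 CPM in control_FDI6. The highest treated library was below the lowest control. The log2 fold change was -0.51 (SE 0.0902, edgeR adjusted p = 0.00105), or 0.7-fold with a 95% interval of 0.611 to 0.803, and p was 0.1 by the exact permutation test, again the smallest possible. Because this is short of a 1.5-fold change, MYBL2 was not among the 13.8% of 15240 genes called at both limits. An adjusted p under 0.05 alone was reached by 38.9% of the genes tested, and by 17.9% of them with a fall, so the shift of MYBL2 was of a common kind in these libraries. FOXM1 moved from 129.5 to 100.5 CPM, a log2 fold change of -0.37 (SE 0.0806, edgeR adjusted p = 0.004), also short of 1.5-fold. The FDI-6 response of MYBL2 minus its siFOXM1 response was -0.46 (95% interval -0.93 to 0.0087, edgeR adjusted p = 0.159), which did not pass where 20% of 17752 genes did. With the replicate numbers as a block it was -0.47 and did (edgeR adjusted p = 0.00327), although same-numbered FDI6 and control_FDI6 libraries did not deviate together.

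**Figure D2:**
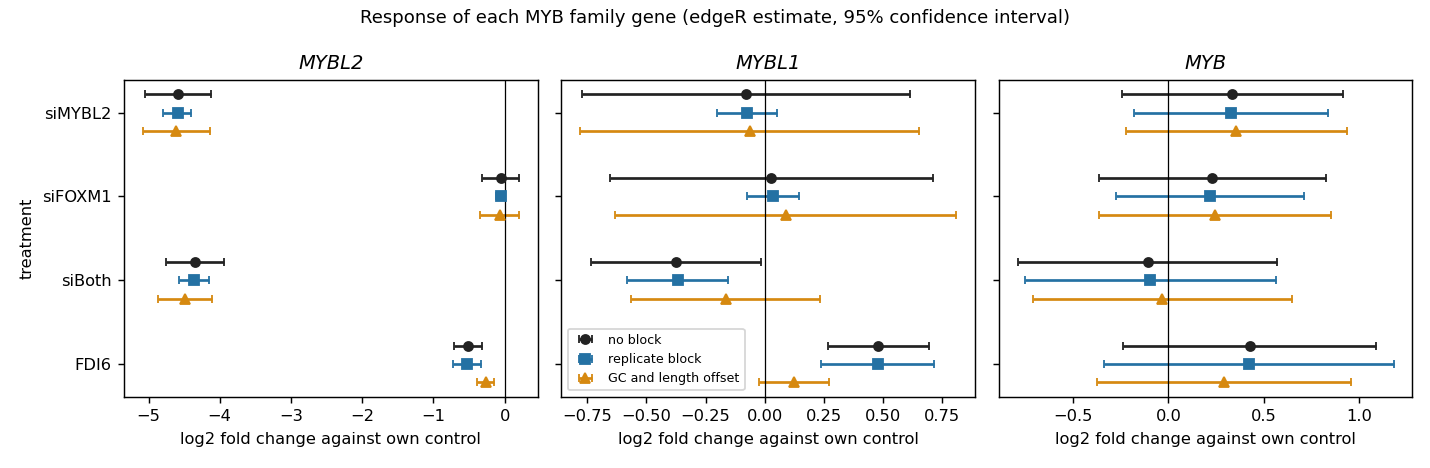
Log2 fold change of each gene against its own control in 4 treatments, with 95% confidence intervals, from the edgeR fit without a block (black), with the replicate number as a block (blue) and with an offset for GC content and length (orange). MYBL1 intervals narrow sharply under the block in siMYBL2 and siFOXM1, and the FDI6 estimates of MYBL1 and MYBL2 move toward 0 under the offset, to 0.12 and -0.27.

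Whether a paralog was higher where MYBL2 was silenced was asked first of MYBL1, and no increase was detected. MYBL1 measured 21.09, 30.19, 32.14 and 14.18 CPM in siMYBL2 replicates 1 to 4 and 22.43, 30.4, 35.27 and 14.96 CPM in siControl. The groups overlapped, and each siMYBL2 library was a little below its same-numbered control, at 94%, 99.3%, 91.1% and 94.8% of it. The log2 fold change was -0.079 (SE 0.308, edgeR adjusted p = 0.89). This unblocked fit allowed anything from 0.585-fold to 1.53-fold. Blocking on replicate number, the same data gave -0.076 (SE 0.0585, edgeR adjusted p = 0.314) and an interval of 0.87-fold to 1.04-fold. In siFOXM1 the level was 23.2, 32.94, 33.8 and 15.83 CPM, with a log2 fold change of 0.028 (SE 0.301, edgeR adjusted p = 0.986) and a blocked interval of 0.949-fold to 1.11-fold. The direct comparison of siMYBL2 with siFOXM1, which does not use the shared controls, gave -0.11 for MYBL1 (edgeR adjusted p = 0.823), while 10.2% of 16172 genes were called, MYBL2 among them (-4.53, edgeR adjusted p = 1.04e-05).

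Within the single-knockdown experiment MYBL1 differed far more between replicate numbers than between treatments. Its mean over the 3 groups was 22.24 CPM in replicate 1, 31.17 CPM in replicate 2, 33.73 CPM in replicate 3 and 14.99 CPM in replicate 4. The 3 libraries of one number differed little, from 14.18 to 15.83 CPM in replicate 4 and from 32.14 to 35.27 CPM in replicate 3. An edgeR test of the number terms over the 12 libraries, added after these values were seen, gave adjusted p = 7.58e-11 for MYBL1, 0.000421 for MYBL2 and 0.125 for MYB. This was common, as 52% of 16538 genes passed that test. The span of MYBL1 between its highest and lowest number, 1.14 on the log2 scale, was larger than that of 96.1% of genes, and it was 1.22 after an offset for GC content and length. Of the 5 epithelial markers, EPCAM, CDH1 and KRT7 set replicate 4 apart and KRT8 and KRT18 did not. EPCAM was at 29.8 to 37.6 CPM and CDH1 at 78.6 to 90.4 CPM in the replicate 4 libraries, against at most 16.9 and 43.3 CPM in replicates 1 to 3, while KRT7 was lowest in replicate 4 (629 to 880 CPM). KRT8 was at 3780 to 4220 CPM and KRT18 at 1470 to 1600 CPM in replicate 4, within the ranges of the other numbers (3250 to 4580 and 1020 to 1680 CPM). The part of these differences in the MYBL1 levels was not tested. Leaving out both replicate 4 libraries, an alternative chosen after seeing the data, gave -0.092 for MYBL1 in siMYBL2 (edgeR adjusted p = 0.783).

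**Figure D3:**
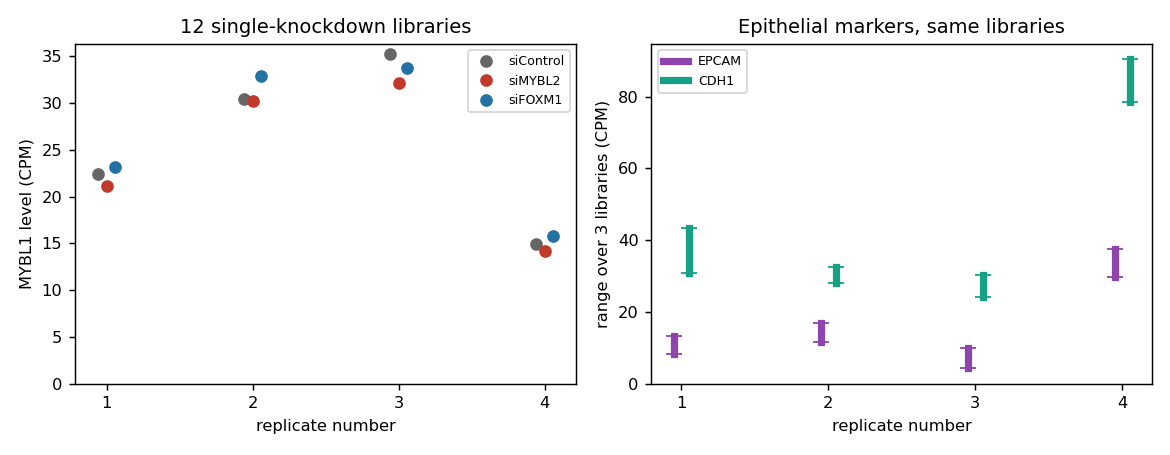
Left, MYBL1 in CPM by replicate number in the siControl, siMYBL2 and siFOXM1 libraries, where the 3 points of one number lie together and replicate 4 is lowest (14.18 to 15.83 CPM). Right, the range over the same 3 libraries of EPCAM and CDH1, the 2 of 5 epithelial markers that are highest in replicate 4.

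In the double knockdown MYBL1 tended to be lower, not higher. It measured 12.87, 16.25 and 16.53 CPM in siBoth and 16.16, 20.87 and 22.04 CPM in siControl_Both. The groups overlapped at one library, and each siBoth library was at 79.6%, 77.8% and 75% of its same-numbered control. Without a block the log2 fold change was -0.37 (SE 0.157, edgeR adjusted p = 0.155). With the replicate block it was the same size and passed (-0.37, SE 0.1, edgeR adjusted p = 0.00926), still short of 1.5-fold. With an offset for GC content and length as well as the block it shrank to -0.17 (edgeR adjusted p = 0.166). The siBoth response minus the siMYBL2 response was -0.29 (95% interval -1.1 to 0.52, edgeR adjusted p = 0.91).

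MYBL1 was higher after FDI-6. It measured 43.14, 36.59 and 36.74 CPM in FDI6 and 26.52, 26.44 and 30.45 CPM in control_FDI6, with no overlap. MYBL1 rose by 0.48 on the log2 scale (SE 0.0972, edgeR adjusted p = 0.00258), or 1.39-fold with an interval of 1.2 to 1.61, and exact permutation gave p = 0.1. This was short of a 1.5-fold change, so MYBL1 was not called at both limits. An adjusted p under 0.05 with a rise was reached by 21% of the 15240 genes. The adjusted p no longer passed with the offset for GC content and length, under which the log2 fold change was 0.12 (SE 0.0697, edgeR adjusted p = 0.201). Nor did it pass when all 24 libraries shared 1 estimate of the spread (0.48, edgeR adjusted p = 0.238). The MYBL2 change was reduced by the offset but still passed (-0.27, SE 0.0556, edgeR adjusted p = 0.0018). The FDI-6 response of MYBL1 minus its siMYBL2 response was 0.56 (95% interval -0.24 to 1.36, edgeR adjusted p = 0.309), where 25.1% of 17752 genes passed. This difference passed only with the replicate block (0.56, SE 0.101, edgeR adjusted p = 0.000107), whose numbers did not pair the FDI6 and control_FDI6 libraries.

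Over all genes the FDI-6 comparison followed GC content. The genes tested were split into 5 bins of equal size by GC content. MYBL1 belongs to the lowest bin (27.4% to 40.9% GC), whose median log2 fold change after FDI-6 was 0.28, with the middle 50% of genes between 0.049 and 0.51. MYBL2 belongs to the highest bin (58.4% to 76% GC), with a median of -0.31 and a middle range of -0.51 to -0.087. MYBL1 at 0.48 was within the middle range of its bin, and MYBL2 at -0.51 stood at the edge of its own. In siBoth the trend ran the other way, from a median of -0.14 in the lowest bin to 0.17 in the highest. In siMYBL2 the medians of the bins lay between -0.0022 and 0.034. The part of base composition in these changes cannot be told apart from a response of many genes of like composition.

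**Figure D4:**
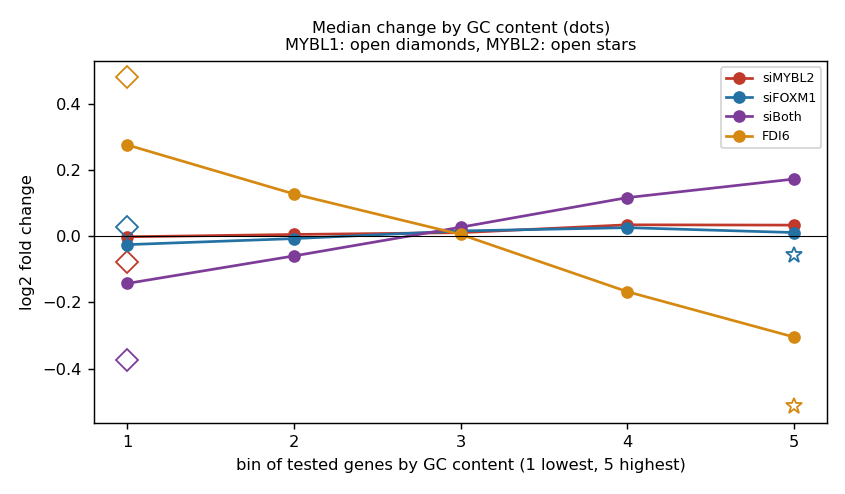
Median log2 fold change of tested genes in each of 5 bins of GC content, lowest to highest (dots joined by lines) for 4 treatments, with MYBL1 (open diamonds, lowest bin) and MYBL2 (open stars, highest bin), the silenced MYBL2 values below -4 being off the axis. The FDI6 medians run from 0.28 to -0.31 and the siBoth medians from -0.14 to 0.17, and MYBL1 lies on the same side as its bin in both.

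MYB stayed low in all groups, between 0.5968 and 1.931 CPM. It measured 0.8837, 1.254, 1.931 and 1.214 CPM in siMYBL2 against 1.202, 0.9475, 1.115 and 0.9298 CPM in siControl, from 22 to 50 pairs. The siMYBL2 replicate 1 library was below every control and the other 3 were above them, so the direction was not shared. The log2 fold change was 0.33 (SE 0.257, edgeR adjusted p = 0.41), with an interval of 0.844-fold to 1.88-fold. In siFOXM1 MYB measured 0.8491, 0.8858, 1.671 and 1.517 CPM, on both sides of the controls (0.23, SE 0.264, edgeR adjusted p = 0.819). In siBoth it measured 0.7212, 0.7615 and 0.8702 CPM, inside the siControl_Both range of 0.5968 to 1.018 CPM (-0.11, SE 0.298, edgeR adjusted p = 0.841). In FDI6 it measured 1.699, 1.34 and 1.113 CPM against 0.8676, 1.061 and 1.132 CPM, with the groups overlapping (0.43, SE 0.305, edgeR adjusted p = 0.291). At this depth the 95% intervals of MYB ran up to 1.88-fold in siMYBL2, 1.77-fold in siFOXM1, 1.49-fold in siBoth and 2.14-fold in FDI6, so these data allow increases up to these sizes.

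The composition of the family per kilobase was very different where MYBL2 was silenced. In siMYBL2, MYBL1 made up 56.5% ± 4.27 (SD, n = 4) of the summed RPKM, MYBL2 39.3% ± 3.89 and MYB 4.21% ± 1.3. MYBL1 exceeded MYBL2 per kilobase in 4 of 4 siMYBL2 libraries, by 1.18-fold to 1.75-fold. In siBoth the order was the other way in 3 of 3 libraries, with MYBL2 at 57.5% ± 3.01 and MYBL1 at 39.8% ± 2.62 (n = 3). With the canonical transcript as the length, MYBL1 exceeded MYBL2 in 4 of 4 siMYBL2 libraries and in 1 of 3 siBoth libraries, so the order in siBoth depends on the length used. The summed level fell with its main member, from 59.17 ± 8.02 RPKM in siControl to 5.912 ± 1.82 in siMYBL2 (n = 4 each) and from 65.58 ± 6.53 in siControl_Both to 5.325 ± 1.02 in siBoth (n = 3 each). After FDI-6 it was 54.84 ± 6.23 RPKM against 74.22 ± 1.61, with MYBL1 at 9.92% ± 2.04 of it against 5.18% ± 0.544. These sums and shares are descriptions without a test.

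**Figure D5:**
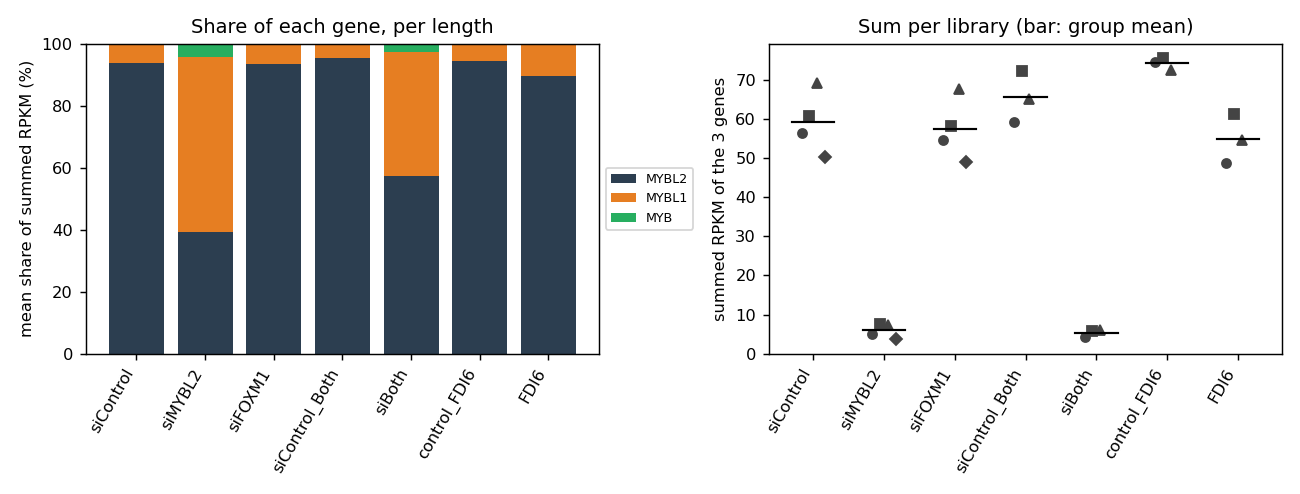
Left, mean share of MYBL2, MYBL1 and MYB in their summed RPKM in each group. Right, the summed RPKM in each library (symbol, replicate number as in the plot of levels; bar, group mean). MYBL1 takes 56.5% in siMYBL2 and 39.8% in siBoth, where the sums are 5.912 and 5.325 RPKM on average.

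By mean CPM the groups ordered for MYBL2 as control_FDI6 (194.9 ± 5.36), siControl_Both (174.1 ± 17.2), siControl (153.8 ± 18.9), siFOXM1 (148.5 ± 18.8), FDI6 (136.6 ± 18.6), siBoth (8.549 ± 2.02) and siMYBL2 (6.39 ± 1.88). Neighbours in that order overlapped except for FDI6 and siBoth. For MYBL1 the order ran from FDI6 (38.82 ± 3.74) through control_FDI6 (27.8 ± 2.29), siFOXM1 (26.44 ± 8.55), siControl (25.76 ± 8.94), siMYBL2 (24.4 ± 8.34) and siControl_Both (19.69 ± 3.11) to siBoth (15.22 ± 2.04), and only FDI6 stood clear of its neighbour. The siControl, siControl_Both and control_FDI6 libraries come from separate experiments, so levels set across them were not tested.

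Gene lists were read from the fits without a replicate block. None of the 5 MuvB core genes, which encode the partners of MYBL2 in the MMB complex, was called in siMYBL2, siFOXM1, siBoth or FDI6, against the 7.9%, 0.667%, 6.44% and 13.8% of all genes called there. LIN37 was low, at 1.202 CPM in siControl. It shares 26.7% of its exonic bases with genes on its strand and 41.8% with genes on the other strand, so its count is uncertain. The lowest p in siMYBL2 was that of LIN9, which was at 17.85 CPM against 24.3 CPM in siControl (log2 fold change -0.44, edgeR adjusted p = 0.00899) and so passed the p but not the 1.5-fold limit. In FDI6 it was that of LIN54, which binds the CHR element, at 22.46 against 15.21 CPM (0.56, edgeR adjusted p = 0.00329). None of the 6 DREAM pocket proteins and E2F partners, which hold MuvB in its repressive form, was called in these 4 comparisons either. The lowest p in siMYBL2 was that of E2F4, at 56.02 against 76.23 CPM (-0.44, edgeR adjusted p = 0.0421), in siFOXM1 that of E2F5, at 19.81 against 15.72 CPM (0.33, edgeR adjusted p = 0.0662), and in siBoth that of RBL1, at 26.58 against 36.02 CPM (-0.44, edgeR adjusted p = 0.0252). E2F4 and RBL1 thus passed the p but not the 1.5-fold limit. In FDI6 the lowest p was that of RBL2. RBL2, a pocket protein that shares 16.4% of its exonic bases with genes on the other strand, stood at 57.48 against 40.99 CPM (0.48, edgeR adjusted p = 0.000868).

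Among 9 activating E2F and cyclin-CDK genes, 3 were called lower in siMYBL2, 2 in siFOXM1 and 2 in siBoth. Of all genes tested, 3.52%, 0.591% and 3.64% were called lower there. CCNF, the cyclin F subunit of a ubiquitin ligase, went from 41.29 CPM in siControl to 17.22 in siMYBL2 (log2 fold change -1.26, edgeR adjusted p = 0.00138) and to 23.05 in siFOXM1 (-0.85, edgeR adjusted p = 0.00284). In siBoth CCNF was at 12.69 CPM against 50.5 (-1.99, edgeR adjusted p = 0.000153). CCNA2, cyclin A2, which with CDK2 phosphorylates MYBL2, fell in the same 3 comparisons by 0.7, 0.61 and 1.46 on the log2 scale (edgeR adjusted p = 0.013, 0.0262 and 0.000257). E2F2 fell in siMYBL2 (-0.68, edgeR adjusted p = 0.0127). None of the 9 was called in FDI6 (13.8% of all genes), where E2F1 had the lowest p (57.54 against 80.88 CPM, -0.49, edgeR adjusted p = 0.000588). The median of the 9 was -0.28 in siMYBL2 and -0.18 in FDI6, beside 0.015 and -0.012 over all genes.

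Of 23 late cell-cycle genes known as targets of MMB and FOXM1, 11 were called lower and 0 higher in siMYBL2, with a median of -0.58. Of all genes tested, 3.52% were called lower there. The most changed were UBE2C, the E2 enzyme of the anaphase-promoting complex (30.38 against 71.2 CPM, -1.23, edgeR adjusted p = 0.00052), CENPE, a kinetochore motor (40.17 against 89.15 CPM, -1.15, edgeR adjusted p = 0.000425), and CENPA, the centromeric histone (14.25 against 30.04 CPM, -1.07, edgeR adjusted p = 0.000329). In siFOXM1 5 were called lower, 1 of them the targeted FOXM1 itself, against 0.591% of all genes, and the median was -0.15. KIF20A, a mitotic kinesin (-0.84, edgeR adjusted p = 0.004), and CENPA (-0.75, edgeR adjusted p = 0.00381) changed most after FOXM1. In siBoth 16 were called lower, 1 of them the targeted FOXM1, against 3.64% of all genes, with a median of -0.83. The largest changes were those of FOXM1 (-3.37), which the design sets, KIF20A (-2.21) and CENPA (-1.88, edgeR adjusted p = 0.000293). No gene of the list was called higher in siMYBL2, siFOXM1, siBoth or FDI6. The siMYBL2 and siFOXM1 values share their control libraries. Compared directly, siMYBL2 was below siFOXM1 at 5 of the 23 genes (4.34% of all genes), TOP2A, CENPE, PLK1, UBE2C and AURKB, and above it at FOXM1, which the siRNA of siFOXM1 targets.

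In FDI6, where MYBL2 itself was at 0.7-fold, 3 of the 23 genes were called lower, against 5.77% of all genes, and the median was -0.32. These were BIRC5, the mitotic regulator survivin (187.5 against 288.2 CPM, -0.62, edgeR adjusted p = 1.88e-05), CENPA (34.44 against 51.97 CPM, -0.6, edgeR adjusted p = 0.000864) and NUSAP1, a spindle protein (1.563 against 3.005 CPM, -0.93, edgeR adjusted p = 0.0181). NUSAP1 shares 86.8% of its exonic bases with other genes on its strand, so its count is uncertain. With the offset for GC content and length only NUSAP1 of the 3 was called. Of the 23 genes, 19 had a log2 fold change below 0 in FDI6. Of these, CCNB1, CCNB2, PLK1, AURKA, AURKB, KIF20A, UBE2C, CKS2 and FOXM1 passed an adjusted p of 0.05 short of a 1.5-fold fall. Their edgeR adjusted p ran from 0.00015 (UBE2C) to 0.013 (CCNB2), with 0.004 for FOXM1. Together with the 3 called genes, they stand beside the 17.9% of all genes tested that passed that p with a fall of any size.

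Of 12 MYB cofactors and regulators, 0 were called in siMYBL2, 0 in siFOXM1, 1 in siBoth and 1 in FDI6, beside 7.9%, 0.667%, 6.44% and 13.8% of all genes, so that counts this low in 12 genes do not set the list apart. HIPK2, a kinase reported to mark MYB for degradation, fell in siBoth (200.2 against 344.7 CPM, -0.78, edgeR adjusted p = 0.00462) and rose in FDI6 (397.3 against 139.6 CPM, 1.51, edgeR adjusted p = 7.74e-08). CREBBP, the coactivator CBP, had the lowest p in siMYBL2 (65.54 against 95.4 CPM, -0.54, edgeR adjusted p = 0.004). Of 9 genes known as MYB targets in blood or epithelium, 6 had counts enough for a test and 0 of these were called in siMYBL2, siFOXM1, siBoth or FDI6, which at the same shares of all genes does not set them apart either. The lowest p there was that of ADA, adenosine deaminase, in siMYBL2 (0.42, edgeR adjusted p = 0.0155) and siBoth (0.31, edgeR adjusted p = 0.0472), of CCND1, cyclin D1, in siFOXM1 (-0.61, edgeR adjusted p = 0.112) and of POLD1, a DNA polymerase subunit, in FDI6 (-0.5, edgeR adjusted p = 0.000335).

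Of 12 other genes for proteins with Myb-type repeats, 0 were called in siMYBL2, 0 in siFOXM1 and 1 in FDI6. The shares of all genes called there were 7.9%, 0.667% and 13.8%, so these counts do not set the list apart. MYSM1, a histone H2A deubiquitinase, rose in FDI6 (38.8 against 20.82 CPM, 0.9, edgeR adjusted p = 4e-05).

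Of 6 flanking protein-coding genes, 4 had counts enough for a test. None of these was called in siMYBL2, siFOXM1, siBoth or FDI6, beside 7.9%, 0.667%, 6.44% and 13.8% of all genes. MYB and MYBL1 were not called themselves, so no neighbour of theirs could be called with them. IFT52, a ciliary transport gene 19720 bp upstream of MYBL2, was at 43.76 against 33.13 CPM in siMYBL2 (0.4, edgeR adjusted p = 0.0106) and at 38.95 against 30.58 CPM in siBoth (0.35, edgeR adjusted p = 0.0308), upward where MYBL2 fell and short of 1.5-fold both times. VCPIP1, 14240 bp from MYBL1, was at 38.3 against 26.38 CPM in FDI6 (0.54, edgeR adjusted p = 0.000455). GTSF1L and VXN, the other neighbours of MYBL2 and MYBL1, had too few counts for a test.

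The genes whose change from the mean of their own controls most resembled each member over the 14 treated libraries were listed as a description. These libraries share controls and replicate numbers, and the likeness has no test. For MYBL2, which falls into a silenced and an unsilenced set of libraries, they were DEPDC1B (Pearson r = 0.986), SGPL1 (0.986), EXTL3 (0.985), PAXIP1 (0.983) and VANGL1 (0.983). For MYBL1 they were NOP58 (r = 0.971), CCT6A (0.96), DKC1 (0.957), LRRK1 (0.947) and TSR1 (0.937), of which NOP58, DKC1 and TSR1 act in ribosome assembly. For MYB they were GNG4 (r = 0.854), TAF5 (0.797), PTTG1 (0.784), NUF2 (0.779) and ANAPC4 (0.768), with MYB resting on only 13 to 50 pairs per library. Between members, r was 0.404 for MYB with MYBL1 and 0.193 for MYB with MYBL2 and 0.502 for MYBL1 with MYBL2.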

How the data were processed

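Per the labels and the study's methods, the authors trimmed reads with TrimGalore, aligned them to hg38 with STAR and counted read pairs per GENCODE V29 gene with HTSeq. The deposited values are raw counts per gene, unnormalized, with HTSeq's totals of unassigned pairs. Tool versions and the strand setting are not given in the sources used here. Pairs on no gene, 18.5% to 26.2% of a library, were left out. No libraries of a group agreed within counting noise (chi-square per gene at least 3.57).

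Symbols, positions, exon lengths and GC content were taken from GENCODE V44, which matched 58207 of 58721 gene identifiers. RPKM used the union of exons and TMM-scaled library sizes. Main tests were edgeR 4.0.16 quasi-likelihood tests (R 4.3.3, TMM, filterByExpr) on each treatment and its own control, with Benjamini-Hochberg adjustment over all genes tested. A member passed at an adjusted p under 0.05, and genes were called at that limit plus a fold change over 1.5. Differences between responses were tested in 1 fit of all 24 libraries. Exact permutation tests used log2(CPM + 0.5). DESeq2 1.42.0, other scalings and filters, a GC and length offset, a replicate block and fits without each library were alternatives. The scripts were tested on simulated data. Figures were drawn with matplotlib 3.10.9.

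Same-numbered libraries deviated together in the 3 knockdown comparisons (lowest correlation of deviations from group means 0.548), so the numbers were taken to pair them. Only the fits with a replicate block used this pairing. The main tests and the permutation tests did not, and the gene list results and the shares of all genes called come from the main tests. In FDI6 the lowest was -0.296, and the numbers did not pair.

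The members and gene lists were chosen with earlier results of these data known. Named from each list were the 3 called genes with the largest absolute log2 fold change, or, where none was called, the gene with the lowest p. Where 3 or fewer were called, all are named, as are the 5 late cell-cycle genes that differed between siMYBL2 and siFOXM1, chosen after their values were seen. The late cell-cycle genes that fell in FDI6 and passed the p but not the 1.5-fold limit were also named after their values were seen. LIN37 is named for the exonic bases it shares with other genes. Also named were FOXM1, the nearest protein-coding neighbours and the 5 genes most like each member among those averaging at least 50 counts. The siBoth result of the list of other proteins with Myb-type repeats is not reported here.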

Additional observations from a re-analysis of the deposited data

Results flagged for a closer look

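A test of the difference between 2 responses passed for MYBL2 in 2 cases. The FDI-6 response of MYBL2 minus its siMYBL2 response was 4.07 on the log2 scale (SE 0.242, edgeR adjusted p = 2.21e-10), and minus its siBoth response it was 3.84 (SE 0.258, edgeR adjusted p = 1.77e-09), the latter added after the values were seen. MYBL2 is the target of the siRNA in siMYBL2 and siBoth and was lower than control in 3 of 3 FDI6, 4 of 4 siMYBL2 and 3 of 3 siBoth libraries, so the responses differ in depth and not in direction.

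The same added difference between FDI6 and siBoth was 0.86 for MYBL1 (95% interval -0.011 to 1.72, edgeR adjusted p = 0.129), where the 2 point estimates have opposite signs. It passed with the replicate block (0.85, edgeR adjusted p = 1.59e-06), whose numbers did not pair the FDI6 and control_FDI6 libraries. With the GC and length offset it was 0.28 (edgeR adjusted p = 0.717).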

How the results depend on the processing

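The fall of MYBL2 in siMYBL2 and siBoth and its smaller fall in FDI6 passed under every alternative run, and no alternative made MYBL1 or MYB pass in siMYBL2 or siFOXM1. The replicate block moved the number of genes called to 1991 in siMYBL2 (1269 without), 401 in siFOXM1 (106) and 1849 in siBoth (1019). With the GC offset as well these were 1986, 386 and 1591, and FDI6 gave 1333 genes with the offset and 1273 with offset and block (2098 without). No filter gave 1545 genes in siBoth. The block made MYBL1 pass in siBoth (-0.37), and in the difference of FDI6 from siMYBL2 (0.56), siFOXM1 (0.44) and siBoth (0.85), and made MYBL2 pass in FDI6 minus siFOXM1 (-0.47). It changed no other member's call, and FDI6 numbers did not pair. The MYBL1 rise in FDI6 was lost in 1 fit of all libraries (0.48), with the offset (0.12) and with offset and block (0.12). Offset and block made MYBL1 pass in siMYBL2 against siFOXM1 (-0.16). The FDI6 minus siMYBL2 difference of MYB turned to -0.013 with upper-quartile scaling and -0.069 with the offset. The causes were not tested, beyond the trend with GC content shown above. With 1 library left out, values that changed sign ranged from -0.28 to 0.11 (MYBL1, siMYBL2), -0.16 to 0.22 (MYBL1, siFOXM1), -0.14 to 0.026 (MYBL2, siFOXM1), -0.303 to 0.038 (MYB, siBoth), -0.14 to 0.28 (MYB) and -0.298 to 0.081 (MYBL1) in siMYBL2 against siFOXM1, and -0.066 to 0.34 (MYB, FDI6 minus siMYBL2), none of which passed. Genes called without 1 library ranged from 935 to 1456 in siMYBL2, 56 to 115 in siFOXM1, 587 to 1097 in siBoth and 1705 to 2406 in FDI6, and late cell-cycle genes called lower from 9 to 13, 5 to 5, 13 to 18 and 2 to 3. The lower counts came without siFOXM1 replicate 1 (56) or 3 (69) or siControl replicate 1 (66) or 2 (68), and without siBoth replicate 2 (587) or siControl_Both replicate 2 (589) or 3 (643). MYB rests on 13 to 50 pairs, and its coefficient of variation in siMYBL2 (33.3%) and siFOXM1 (34.5%) exceeded that of counting error (16.7% and 17.3%).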
